A study of Mus musculus with 7 samples.

Results

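The immunity-related GTPases (IRGs) are a family of interferon-inducible proteins, and 8 of its mouse genes were sought on 7 microarrays of natural killer (NK) cells: Irgm1, Irgm2, Igtp, Iigp1, Tgtp1, Tgtp2, Gm12250 and Ifi47. Only genes with a transcript cluster of their own were measured as genes, a transcript cluster being the set of probes that the array reports as 1 value. This left 3 of the 8 members, Irgm1, Gm12250 and Iigp1, of 19752 such genes in all. The other 5 occurred only on 4 transcript clusters that list more than 1 gene, so that their signal cannot be assigned to a single gene, and these clusters are described separately. The study held 4 arrays of splenic NK cells cultured for 8 h with interleukin 2 (IL2) at 250 U/ml (replicates 1 to 4), and 3 arrays of cells cultured without cytokine (replicates 2 to 4). All cells came from spleens of 6-week-old male C57BL/6 mice, were enriched by EasySep negative selection, in which unwanted cells are labelled and removed, and had NK1.1 as their stated marker. The series title gives the response of NK cells to IL2 as its question. The labels do not tie replicates to separate mice or cultures, and p-values therefore reflect array-to-array spread that may be technical.

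IRG proteins act inside the cell, where interferon makes many cell types produce them. The effector members (Iigp1, also called Irga6; the Tgtp proteins, or Irgb6; Gm12250, or Irgb10; and Ifi47, or Irgd) bind to the membrane of vacuoles that hold parasites or bacteria and help to break it. The regulatory members (Irgm1, Irgm2 and Igtp, or Irgm3) sit on the cell's own membranes and hold the effectors inactive there. Transcription of IRG genes is classically driven by interferon gamma and type I interferon, through the gamma-activated site (GAS) and the interferon-stimulated response element (ISRE), to which interferon regulatory factors bind. NK cells are themselves a main source of interferon gamma.

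The promoter windows of the 2 measured genes on chromosome 11 are shown first, because they hold letter matches to the ISRE and, in Gm12250, to the GAS. Each window runs from 250 bases before to 50 after the gene start in RefSeq (GRCm38.p6), read 5′ to 3′ on the gene's strand. Capitals mark matches to GAAANNGAAA, the core of the ISRE, or to TTCNNNGAA, the GAS, each searched on both strands. The window of Irgm1 (chr11:48871371-48871670, minus strand) held 2 ISRE matches that overlap, at positions -30 to -21 and -24 to -15 from the gene start, and no GAS match. The window of Gm12250 (chr11:58183593-58183892, plus strand) held ISRE matches on the opposite strand at -91 to -82 and -46 to -37, with a GAS match at -61 to -53 between them.
Irgm1: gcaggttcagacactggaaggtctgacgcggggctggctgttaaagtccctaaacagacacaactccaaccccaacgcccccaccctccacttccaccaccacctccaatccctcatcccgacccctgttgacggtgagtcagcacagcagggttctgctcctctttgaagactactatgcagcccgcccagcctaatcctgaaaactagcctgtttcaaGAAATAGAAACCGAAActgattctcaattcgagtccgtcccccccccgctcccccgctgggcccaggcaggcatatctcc
Gm12250: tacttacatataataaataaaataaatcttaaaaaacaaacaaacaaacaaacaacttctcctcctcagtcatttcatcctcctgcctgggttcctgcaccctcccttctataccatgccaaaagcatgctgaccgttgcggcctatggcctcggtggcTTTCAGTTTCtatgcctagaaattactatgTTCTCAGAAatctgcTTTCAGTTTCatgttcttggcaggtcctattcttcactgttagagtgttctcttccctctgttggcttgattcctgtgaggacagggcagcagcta

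RefSeq windows were found for 7 of the 8 members, and none was found for Iigp1 in the reference used here. Of these 7, 6 held an ISRE match and 5 also a GAS match, while the window of Ifi47 held neither, which says only that these letters are not in that window. Among all 32851 windows of this length, 3.44% held the ISRE letters, 8.3% the GAS letters and 0.454% both. In Igtp, Irgm2, Tgtp1 and Tgtp2 the elements lay in 1 arrangement, a GAS match followed after 2 bases by an ISRE match, with no overlap. The next 4 sequences show this block for the genes that share transcript clusters: Igtp (chr11:58199497-58199546, plus strand), Irgm2 (chr11:58214888-58214937, plus strand), Tgtp1 (chr11:48992299-48992348, minus strand) and Tgtp2 (chr11:49064258-49064307, minus strand).
Igtp: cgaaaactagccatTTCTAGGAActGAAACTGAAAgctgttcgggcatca
Irgm2: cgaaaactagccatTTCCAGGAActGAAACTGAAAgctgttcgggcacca
Tgtp1: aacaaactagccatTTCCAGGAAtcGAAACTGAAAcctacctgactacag
Tgtp2: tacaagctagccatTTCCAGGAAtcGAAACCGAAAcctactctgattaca

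Aligned on the ISRE, Igtp and Irgm2 had the same base at 48 of these 50 positions and Tgtp1 and Tgtp2 at 38, against 33 for Igtp with Tgtp1. The whole windows of Igtp and Irgm2 shared an unbroken run of 61 bases, and those of Tgtp1 and Tgtp2 a run of 27. Igtp and Irgm2 are next to each other on chromosome 11 in the RefSeq annotation, with Gm12250 on the other side of Igtp. Tgtp1, Tgtp2 and Ifi47 lie in a second cluster on the same chromosome, close to Irgm1, and Iigp1 is on chromosome 18. A sequence match is a description of these windows and was not tested as a site of binding.

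**Figure D1:**
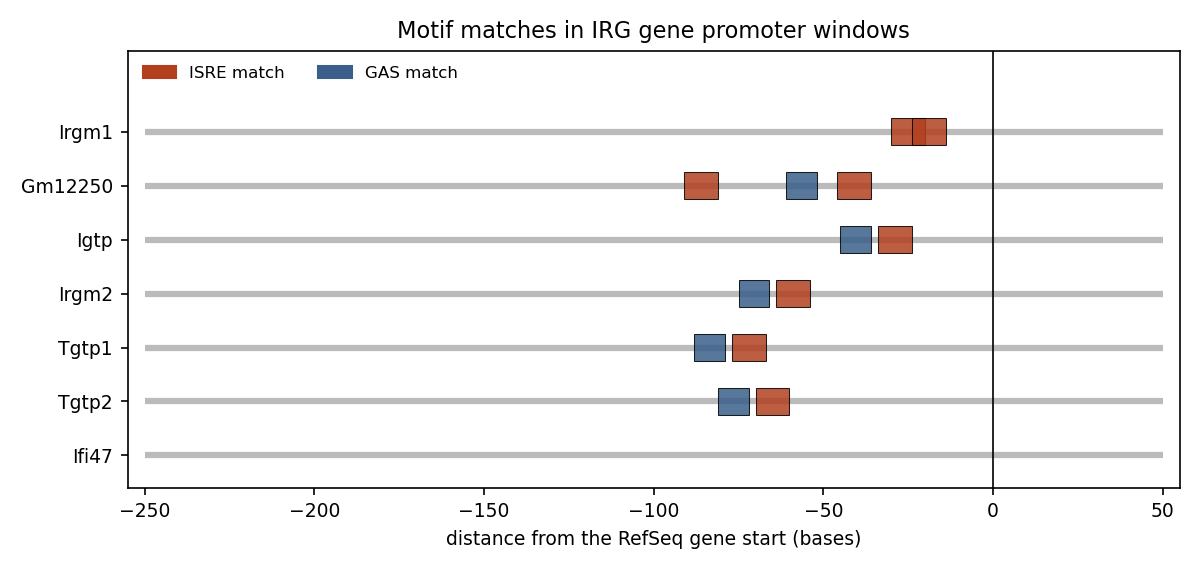
Positions of ISRE (red) and GAS (blue) matches in the promoter windows of the 7 IRG genes with a RefSeq window, as distance in bases from the gene start (x axis; grey bars are the windows). Matches lie between -91 and -15, and the window of Ifi47 has none.

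All 3 measured IRG genes were higher with IL2, with fold changes between 6.07 and 9.76. Of all 19752 genes tested with limma, a moderated linear model, 410 were higher at a Benjamini-Hochberg adjusted p under 0.05, which is 2.08%, 0.901% were lower, and 1.12% were higher and changed at least 2-fold. Ranked by log2 fold change among all genes, Gm12250 was 6, Iigp1 was 9 and Irgm1 was 21. For all 3 genes every IL2 array lay above every untreated array, as was so for 6.25% of all genes.

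Irgm1, a regulatory IRG that also takes part in autophagy and whose loss leaves mice open to intracellular infection, was higher on every IL2 array than on any untreated array. The intensity of Irgm1 (transcript cluster 10385500) was 2536, 2925, 2469 and 2219 in IL2 replicates 1 to 4, against 791, 290 and 313 in untreated replicates 2 to 4. The IL2 arrays lay close together, within 1.32-fold of each other, whereas untreated replicate 2 stood 2.62-fold above the mean of the other untreated arrays, and the groups did not overlap. On the log2 scale Irgm1 averaged 11.30 ± 0.16 with IL2 (SD, n = 4) and 8.70 ± 0.81 in untreated cells (n = 3). The log2 fold change came to 2.60 (SE 0.33, 95% interval 1.84 to 3.37, limma adjusted p = 0.00751), or 6.07-fold. It was 3.07 (SE 0.12) without untreated replicate 2. Without untreated replicate 4 it was 2.40 and missed the threshold at a limma adjusted p of 0.0526.

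Gm12250 (Irgb10) encodes an effector IRG that is recruited to bacteria and their vacuoles in mouse macrophages. The intensity of Gm12250 (transcript cluster 10376324) was 1119, 1413, 1558 and 1469 in IL2 replicates 1 to 4, against 232, 95.5 and 127 in untreated replicates 2 to 4. Untreated replicate 2 was again the highest of its group, 2.11-fold above the mean of the other untreated arrays, but the lowest IL2 array was still 4.82-fold above it. Gm12250 averaged a log2 intensity of 10.43 ± 0.21 with IL2 (SD, n = 4) and 7.14 ± 0.65 in untreated cells (n = 3). The log2 fold change was 3.29 (SE 0.28, 95% interval 2.63 to 3.94, limma adjusted p = 0.00147), or 9.76-fold, and the call held whichever array was left out (3.00 to 3.64).

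Iigp1 (Irga6), the effector IRG best known for coating the vacuole of Toxoplasma gondii, had a low and even signal on the untreated arrays. The intensity of Iigp1 (transcript cluster 10455961) was 431, 582, 500 and 460 in IL2 replicates 1 to 4, against 54.8, 52.2 and 57.5 in untreated replicates 2 to 4. The untreated arrays lay within 1.10-fold of each other, with replicate 2 between the other arrays, and the lowest IL2 array was 7.50-fold above the highest of them. Iigp1 averaged a log2 intensity of 8.94 ± 0.19 with IL2 (SD, n = 4) and 5.77 ± 0.07 in untreated cells (n = 3). The log2 fold change of 3.16 (SE 0.11, 95% interval 2.90 to 3.42, limma adjusted p = 3.46e-05), or 8.95-fold, lay between 3.08 and 3.22 whichever array was left out. The untreated signal was at percentile 20.8 of the signals of all genes, which describes this transcript cluster and not the gene's level against other genes. The deposited table holds no detection calls, so whether the untreated signal of Iigp1 was above background is not known here. If it was not, the fold change is a lower limit, its rank is uncertain, and the small untreated spread is that of background.

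**Figure D2:**
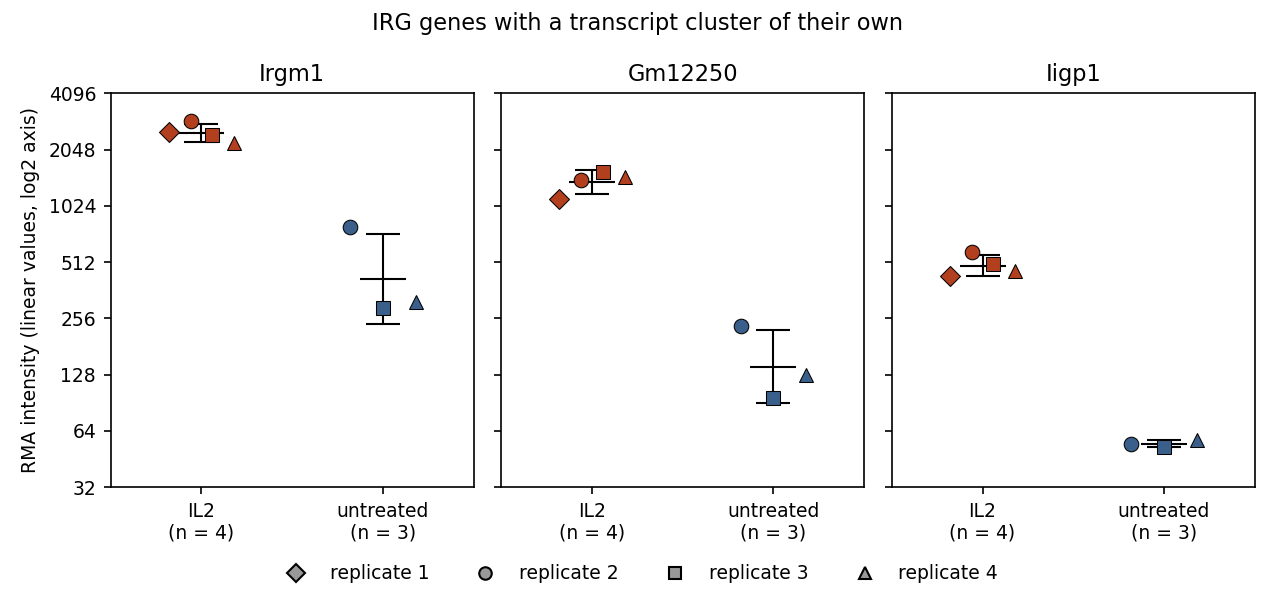
RMA intensity (y axis, log2 spacing) of Irgm1, Gm12250 and Iigp1 on each of 4 IL2 arrays (red) and 3 untreated arrays (blue); marker shapes give the replicate, and bars the mean of the log2 values ± SD. The groups do not overlap in any panel, and untreated replicate 2 (circle) stands above the other untreated arrays for Irgm1 and Gm12250 but not for Iigp1.

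The 3 genes were compared pairwise in the size of their response. Gm12250 changed by 0.68 more than Irgm1 on the log2 scale, with no overlap between IL2 and untreated arrays in the difference of the 2 genes. Iigp1 changed by 0.56 more than Irgm1 and Gm12250 by 0.12 more than Iigp1, in both cases with overlap and with the limit given for the untreated signal of Iigp1. A two-sided exact permutation test over 4 against 3 arrays cannot give a p below 0.0571, so these differences are a description, and that members responded unequally or alike was not shown.

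The 4 transcript clusters that list further IRG genes were also higher with IL2, in a fit over all 24922 transcript clusters in which 1.83% were higher. The cluster listing the regulatory genes Irgm2 and Igtp (10376326) had intensities of 1438, 1829, 1614 and 1446 in IL2 replicates 1 to 4, against 307, 178 and 258 in untreated replicates 2 to 4. The log2 fold change of this cluster was 2.70 (SE 0.19; limma adjusted p = 0.00083). These genes encode the other regulators of the effector IRGs, and the groups did not overlap.

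Of the clusters that both list Tgtp1 and Tgtp2, genes of the effector Irgb6, the one listed first here (10385518) had intensities of 4489, 4645, 4758 and 4314 in IL2 replicates 1 to 4, against 874, 378 and 456 in untreated replicates 2 to 4. Its log2 fold change was 3.09 (SE 0.26; limma adjusted p = 0.00155), and that of the other (10385533) was 2.98 (SE 0.28; limma adjusted p = 0.00211). Both clusters list both genes, which are close copies, so that the signal of Tgtp1 and of Tgtp2 cannot be told apart. The cluster listing Ifi47, the effector Irgd, together with the olfactory receptor gene Olfr56 (10375515) had intensities of 633, 712, 628 and 664 in IL2 replicates 1 to 4, against 247, 151 and 113 in untreated replicates 2 to 4. Its log2 fold change of 2.03 (SE 0.24, 95% interval 1.48 to 2.58, limma adjusted p = 0.00586) was the smallest of the 4, and how much of it belongs to either gene was not tested. Untreated replicate 2 was the highest untreated array on all 4 clusters, by 1.43-fold to 2.26-fold over the mean of replicates 3 and 4.

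**Figure D3:**
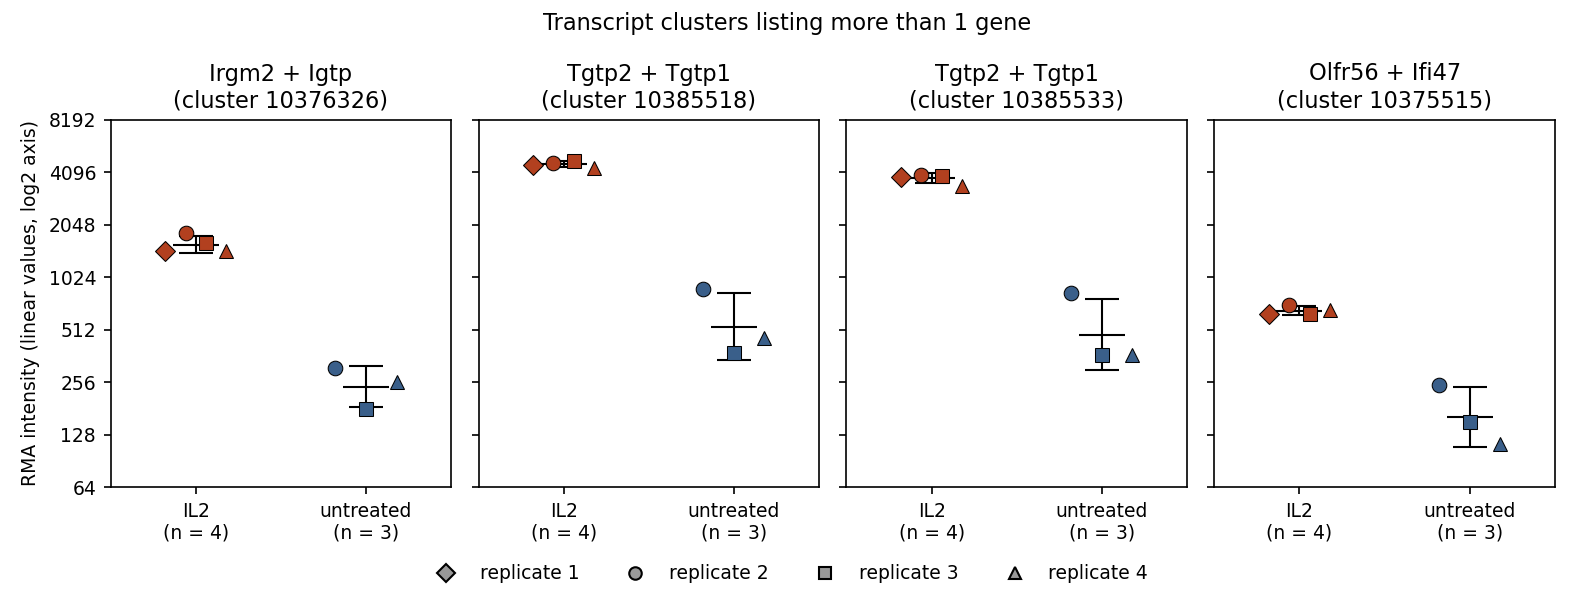
RMA intensity (y axis, log2 spacing) of the 4 transcript clusters that list more than 1 gene, including Irgm2, Igtp, Tgtp1, Tgtp2 or Ifi47, on each IL2 (red) and untreated (blue) array; marker shapes give the replicate, and bars the mean of the log2 values ± SD. All IL2 arrays lie above all untreated arrays, and untreated replicate 2 (circle) is the highest untreated array in each panel.

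Untreated replicate 2 thus had higher signals for Irgm1, Gm12250 and the shared clusters than the other untreated arrays. It lay above them by 1.39 for Irgm1 and 1.07 for Gm12250 on the log2 scale. Iigp1 was level with them (-0.00011), but its untreated signal is not known to be above background, and a transcript cluster at background could show no difference there. Over all genes it was the highest untreated array for 23.4% and at least 2-fold above the mean of the other arrays for 0.294%. The interferon gamma gene Ifng had intensities of 152 in untreated replicate 2, 159 in replicate 3 and 137 in replicate 4. The medians of these arrays were 123, 127 and 131. Whether the untreated signal of Ifng was above background is not known either, so a difference between these arrays could have been missed. Of 8 guanylate-binding protein genes 5 were highest in untreated replicate 2 (median difference 0.48), and of 13 interferon gamma signalling genes 7 were (median 0.35). All 10 measured NK cell markers were highest in it too, with a median difference of 0.72 and a summed intensity of 9358 in replicate 2, 5856 in replicate 3 and 5888 in replicate 4. The excess was not limited to NK cell markers, since 6 of 8 B cell markers (median 0.25) and 6 of 12 macrophage and monocyte markers (median 0.17) were highest in it. Of 7 neutrophil markers 3 were, with a median of -0.28. These 3, Cxcr2, Retnlg and Csf3r, named after their values were seen, stood 2.50-fold to 4.14-fold above the mean of the other untreated arrays. The remaining neutrophil markers, Mmp8, S100a9, Ly6g and S100a8, went the other way, with untreated replicate 2 at 0.56-fold to 0.82-fold of that mean. Of 8 T cell markers 1 was highest in it (median -0.62), of 7 dendritic cell markers 2 (median -0.04) and of 3 erythroid markers 0 (median -0.14). In bulk RNA a larger share of cells and more RNA per cell cannot be told apart, and the part that cell makeup has in the IRG signal of this array was not tested.

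**Figure D4:**
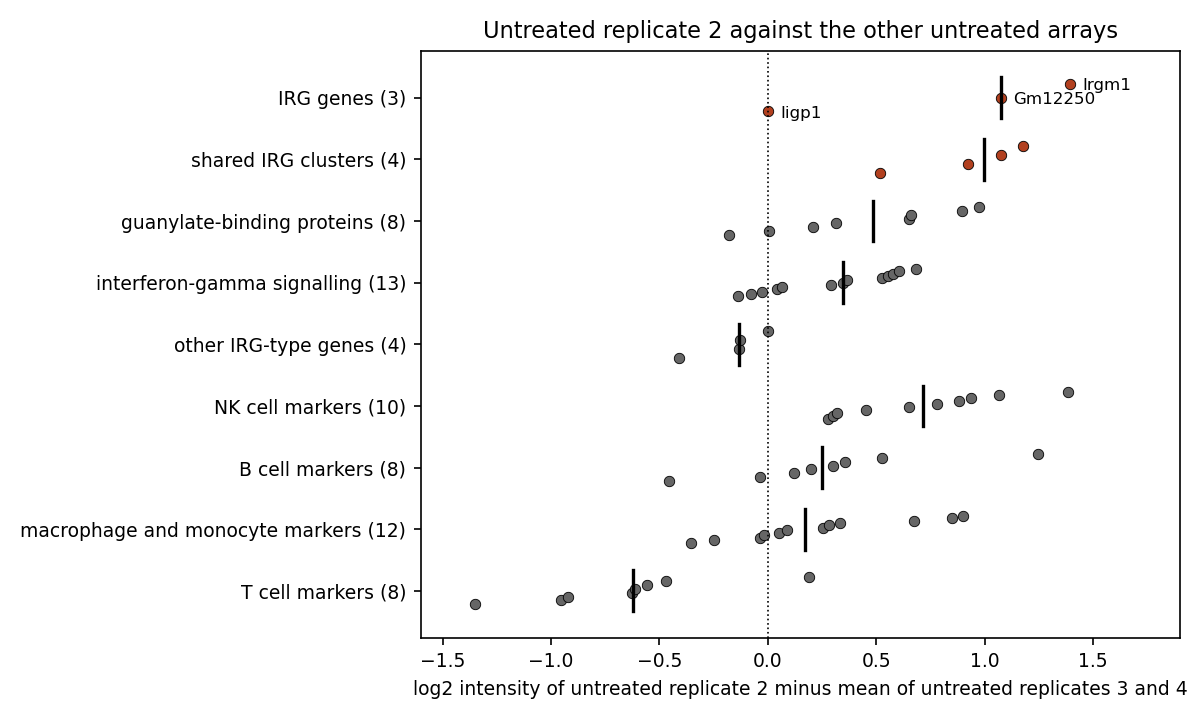
Log2 intensity of untreated replicate 2 minus the mean of untreated replicates 3 and 4 (x axis) for each measured gene or cluster (points), grouped by family, fixed list or cell type marker list (rows, with the number measured); black ticks are medians. Irgm1, Gm12250 and the shared IRG clusters lie between 0.52 and 1.39, Iigp1 lies at 0, and all 10 NK cell markers lie above 0.

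Untreated replicate 2 is also the only untreated array whose title does not name the time of culture, as the titles of IL2 replicates 1 and 2 do not, and 8 h was taken for these arrays from another label field. Within the 4 arrays whose titles name the time, the log2 fold change was 2.96 for Irgm1, 3.78 for Gm12250 and 3.13 for Iigp1, with limma adjusted p-values of 0.0296 to 0.0399. Within the other 3 arrays it was 1.78, 2.44 and 3.19, at a limma adjusted p of 0.356 for each. In that fit the single untreated array was assumed to vary like the IL2 arrays, and 0 genes were called either way (2630 at an unadjusted p under 0.05). The direction was thus the same in both title styles, while the size for Irgm1 and Gm12250 was smaller in the style that holds untreated replicate 2, a difference that was not tested.

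Cell type markers, of NK cells and of some other cells, differed between IL2 and untreated arrays as well. The summed intensity of 10 NK cell markers was 20351 to 25082 in IL2 arrays, against 5856 to 9358 in untreated arrays. Called higher were 5 of them: Prf1, the perforin gene (log2 fold change 2.83), Nkg7 (2.27), Ncr1 (2.18), Klrb1c (1.70) and Tbx21 (1.42). The others differed by 1.81 (Gzma), 1.05 (Klrk1), 0.83 (Eomes), 0.46 (Klre1) and 0.09 (Klrd1) and were not called. A larger share of NK cells and more RNA per cell were not told apart here. Of 12 macrophage and monocyte markers 7 were lower and none higher (summed intensity 4087 to 5695 with IL2, 12202 to 13406 in untreated cells), and of 7 neutrophil markers 1 was lower (1692 to 2355 against 3992 to 5365). Markers of B cells stayed bright in both groups, at 12448 to 13222 with IL2 and 14692 to 16404 in untreated cells, and 1 of 8 was lower. Of 8 T cell, 7 dendritic cell and 3 erythroid markers none were called. Many cell types can express IRG genes, so the cells in which they rose cannot be told from these arrays, and the part of cell makeup in the result was not tested.

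Genes around the IRG family were taken from 4 fixed lists, each described by its counts beside the median log2 fold change of -0.01 over all genes. Of 13 measured interferon gamma signalling genes, 6 rose and 1 fell, with a median of 0.63. Ifng, the cytokine itself, had intensities of 1488, 1469, 2123 and 1619 in IL2 replicates 1 to 4, all above the untreated values given before, and with IL2 it rose by 3.47 (log2, SE 0.14; limma adjusted p = 5.98e-05). Socs1, the feedback inhibitor of JAK kinases, rose by 2.84 (SE 0.09), and Irf1, a transcription factor that binds the ISRE, by 1.66 (SE 0.19, limma adjusted p = 0.00534). With the mean of all transcript clusters of a gene in place of the brightest, Irf1 rose by 0.99 (SE 0.14, limma adjusted p = 0.0115). The member that fell, Ifngr2, the signalling chain of the interferon gamma receptor, was named after its values were seen (-0.84, SE 0.15, limma adjusted p = 0.0312). Leaving out untreated replicate 2, untreated replicate 4, IL2 replicate 2 or IL2 replicate 3 ended the call of Ifngr2 (limma adjusted p between 0.0822 and 0.122). The count of signalling genes higher was 3 without IL2 replicate 2 or 3 or untreated replicate 4.

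All 8 measured guanylate-binding protein genes rose, and their median log2 fold change was 1.97. These proteins are larger interferon-inducible GTPases that work together with IRGs at pathogen vacuoles. Gbp4 rose by 3.17 (SE 0.26), Gbp5 by 2.76 (SE 0.21) and Gbp7 by 2.33 (SE 0.15), with limma adjusted p-values of 0.000581 to 0.00144. Neighbouring members of this family may cross-hybridise, which was not tested.

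Other genes of the IRG type did not move as 1 group. Of 4 measured, 1 passed the test, Gm4951 (Ifgga2), which rose by 1.85 (log2, SE 0.18, limma adjusted p = 0.00214). Gm4951 lies near Iigp1 on chromosome 18, with the coding genes Gm4841 and F830016B08Rik between them. The intensity of Gm4951 was 180 to 262 in IL2 arrays, against 49.1 to 71.1 in untreated arrays. Its untreated signal was at percentile 22.2 of the signals of all genes, and whether it was above background is not known, as for Iigp1. The next gene along, Gm4841, differed by 0.82 on the log2 scale and did not pass the test (SE 0.18, limma adjusted p = 0.0639). Irgc1, a family member that in mice is expressed in testis, and Irgq, which lacks a working GTPase site, had log2 fold changes of -0.08 (95% interval -0.30 to 0.14) and -0.05 (95% interval -0.25 to 0.15). The values of these 3 genes were given after they had been seen. Both clusters listing 9930111J21Rik1 and 9930111J21Rik2, the genes beside Tgtp1 and Tgtp2, had log2 fold changes of 0.35 and 0.37 in the fit over all clusters (limma adjusted p-values of 0.247 and 0.215).

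Autophagy conjugation and ubiquitin factors include proteins that help to load IRG and guanylate-binding proteins onto vacuoles. Of 14 such factors limma called 0 in either direction, with a median log2 fold change of 0.06. Sqstm1 differed by -0.63 and Map1lc3b by -0.38 (limma adjusted p-values of 0.21 and 0.365), both named after their values were seen. The largest difference was in Trim21, an interferon-inducible ubiquitin ligase, at 0.91 (SE 0.22, limma adjusted p = 0.0915). It passed the test when dim genes were left out, when the arrays were quantile normalized once more and when arrays were weighted by quality (limma adjusted p between 0.0194 and 0.0439).

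**Figure D5:**
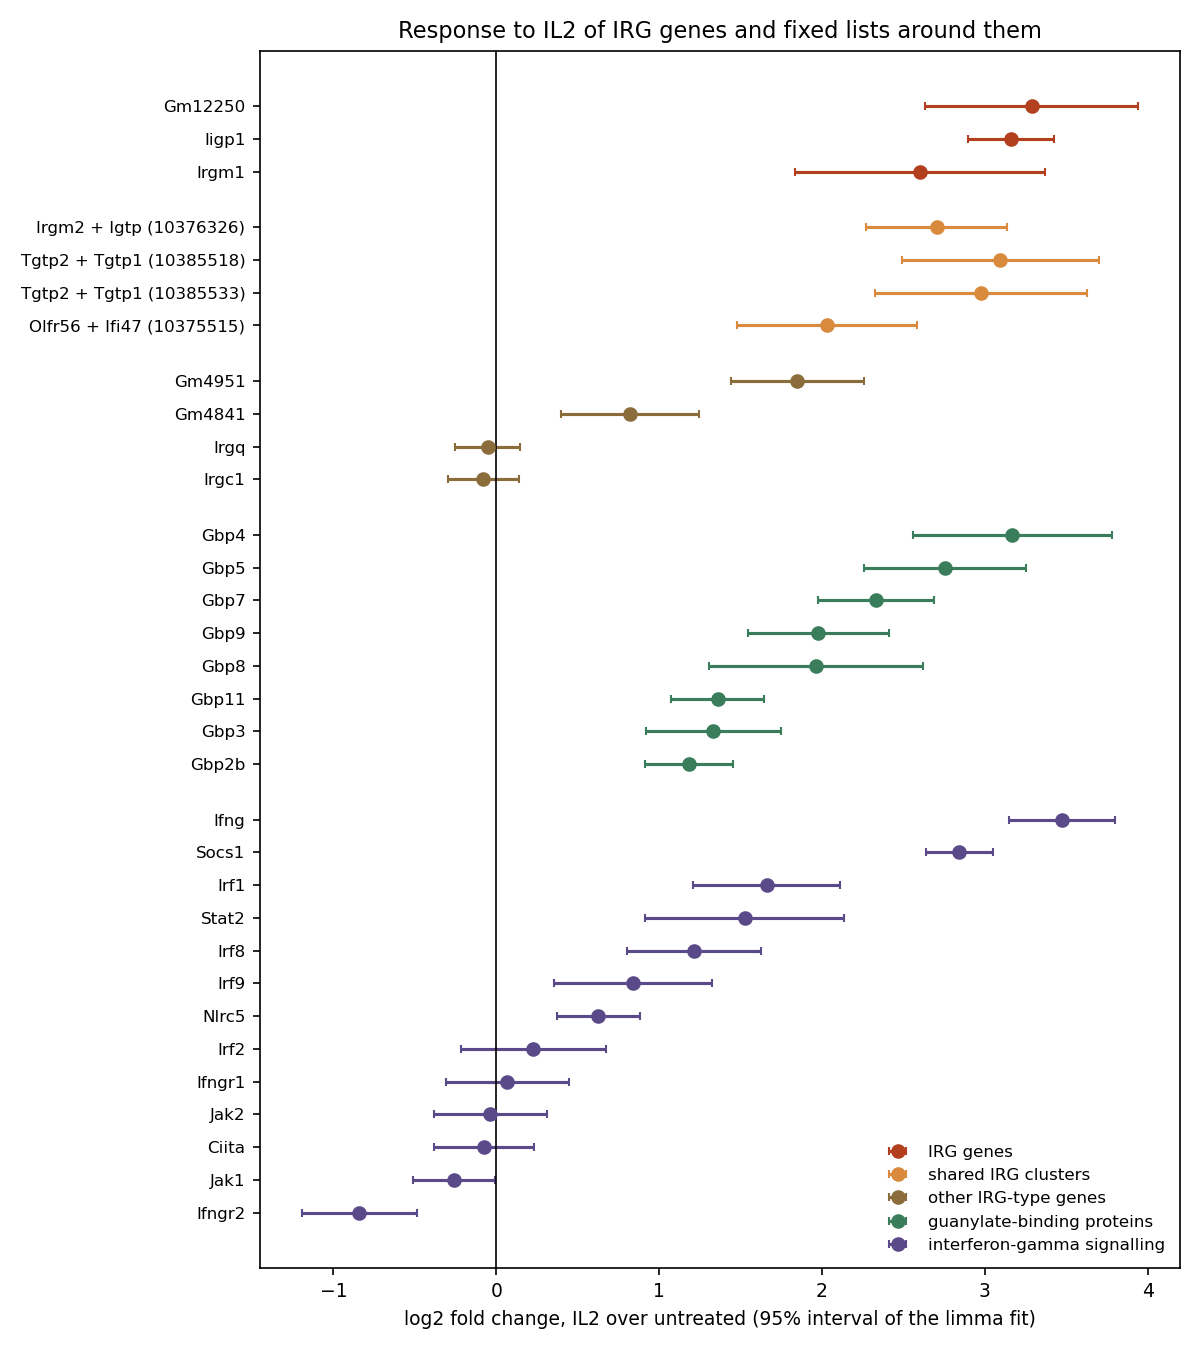
Log2 fold change, IL2 over untreated, with its 95% interval (x axis) for the 3 IRG genes, the 4 shared IRG clusters and the measured members of 3 fixed lists; the shared clusters come from the fit over all transcript clusters. IRG genes and clusters lie between 2.03 and 3.29, and Irgc1, Irgq, Ifngr1, Ciita and Jak2 between -0.08 and 0.07.

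The genes whose profile over the 7 arrays came closest to the mean of the 3 IRG genes were found by Euclidean distance between log2 deviations from the untreated mean. They were Serpinb9b (distance 0.41), a serpin gene, Zbp1 (0.54), a sensor of Z-form nucleic acid, Gbp4 (0.59), Ccl3 (0.61), a chemokine gene, and Gbp5 (0.62). The closest, Serpinb9b, had a log2 fold change of 2.86 (SE 0.22) and stood 0.80 higher in untreated replicate 2 than in the other untreated arrays. These points share their arrays and their normalization, and the distances are a description with no test.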

How the data were processed

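Per the labels, TriZol-extracted RNA of NK-enriched splenocytes was amplified (Ambion WT Expression Kit) and read on arrays of the type Affymetrix Mouse Gene 1.0 ST. The authors deposited 1 intensity per transcript cluster and array, for which the submitters' processing notes name RMA and Affymetrix Power Tools. Which versions and settings were used, and which arrays were normalized together, is not given in the sources used here. Since the values were linear, log2 was taken without an offset.

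Of 24922 transcript clusters 21425 had 1 gene symbol, 1399 several and 2098 none. The brightest cluster per gene was kept for the 921 genes with more than 1, giving 19752 genes, and dim genes were kept. Groups came from the sample titles. IL2 and untreated arrays were compared in limma 3.58.1 (R 4.3.3; lmFit and eBayes with default settings, no covariate), with Benjamini-Hochberg correction over all genes and a threshold of 0.05. On 54.3% of genes at least 2 arrays held exactly equal deposited values, and the effect of this on their spread was not tested; the 3 IRG genes held 0 such values, while Irgq had them in the untreated group. The number of arrays limits the precision.

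The members and lists were chosen with earlier results of these data known. All members with a transcript cluster of their own were named, with the 3 called genes of largest change of each list (the 1 of largest change where none was called), Ifng, Irf1 and the 5 genes with the closest profile. Promoter windows are from RefSeq (GRCm38.p6). Other settings were replicate number or title style as a block, each title style alone, a filter at the median signal, quantile normalization again, median centring, array quality weights (statmod 1.5.0), a trended and robust eBayes, the mean of all clusters of a gene and each array left out in turn. The fit over all transcript clusters was added after the data had been seen.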

Additional observations from a re-analysis of the deposited data

Results flagged for a closer look

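In the 4 IL2 arrays, Irf1 had a log2 intensity of 10.38 in replicate 1, against 10.89 to 10.92 in replicates 2 to 4, and this gap was 0.945 of the group's range, above the 95% critical value of Dixon's test for 4 samples. None of the 3 IRG genes or 4 shared clusters had such a gap in the IL2 arrays. Of 19 genes and clusters examined 1 had it, and chance gives about 1 in 20. The untreated group, of 3 arrays, was not examined in this way.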

How the results depend on the processing

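Irgm1, Gm12250 and Iigp1 were higher with IL2 under all 17 other settings, with log2 fold changes of 1.78 to 3.07, 2.44 to 3.78 and 3.08 to 3.23, and each passed the test in all but the fit over the 3 arrays whose titles do not name the time (1.78, 2.44 and 3.19, limma adjusted p = 0.356) and, for Irgm1, the fit without untreated replicate 4. That 3-array fit, which has a single untreated array, called 0 genes higher and 0 lower, and so 0 of the IRG, signalling, guanylate-binding and other IRG-type genes. The 4 arrays whose titles name the time gave 81 higher and 22 lower genes, with 3 signalling, 5 guanylate-binding and 0 other IRG-type genes higher; Gm4951 (limma adjusted p = 0.0849), Ifngr2 (0.171) and the cluster listing Irgm2 and Igtp (0.0503) lost their calls there. Quantile normalization again gave 694 higher and 577 lower genes, so that 54.6% of calls were higher against 69.7% in the fit reported. Other IRG-type genes higher numbered 2 with replicate number or title style as a block, after quantile normalization again and with centred arrays. The filter at the median signal removed Gm4951 and the other measured genes of this list before the test. Their count of 0 there was thus fixed in advance and says nothing of the call of Gm4951. Under that filter 1 autophagy factor was higher, as under array quality weights and after quantile normalization again. With each array left out in turn, 134 to 517 genes were higher and 65 to 152 lower (134, 144 and 159 higher without IL2 replicates 2, 3 and 4, 178 and 162 without untreated replicates 3 and 4), with 2 to 3 IRG genes, 3 to 6 signalling genes, 7 to 8 guanylate-binding genes and 1 other IRG-type gene, and Irgm1 ranged from 2.34 to 3.07. Causes of these shifts were not tested. Same-numbered arrays of the groups did not deviate together throughout (r of 0.46, -0.30 and 0.31 across genes for numbers 2, 3 and 4). Not every array correlated best with its own number, so the numbers were not taken as pairs. As a block, the replicate number gave 554 higher and 184 lower genes. The log2 fold changes were then 2.60, 3.39 and 3.22 for Irgm1, Gm12250 and Iigp1, all called. IL2 replicate 1 has no untreated partner and added nothing to them, so they equal those without that array. No deposited measure of signal over background was available for dim genes such as untreated Iigp1.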
